A study of Mus musculus with 23 samples.

Results

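The transcripts described here are 35 mouse genes of glycolysis and of the response to low oxygen, chosen by name: the enzymes of glycolysis with their glucose and lactate transporters, and genes that hypoxia-inducible factors (HIFs) are known to induce. All 35 matched 1 entry each among the 47729 genes of the count table, and all 35 passed the filter on low counts that left 16260 genes for testing. RNA sequencing was done on macrophages (Cx3cr1 positive, Ly6C low) and monocytes (Cx3cr1 positive, Ly6C high) of C57BL/6J mice. The mice either carried a poly(ethylene glycol) (PEG) hydrogel, a synthetic water-swollen polymer that sets off a foreign body response, or had no implant. Each cell type had a control group labelled as untreated subcutaneous tissue and groups at day 2, day 14 and day 28 after a hydrogel was placed under the skin, which makes 8 groups and 23 libraries. Every group had 3 libraries, labelled A, B and C, except the macrophage controls, which had 2. The design text calls these biological replicates, and the sources used here do not say whether animals were pooled or how old they were. The mice are labelled wild type, in the control and in the implant groups alike.

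Glycolysis splits glucose into pyruvate and yields ATP without oxygen, and lactate dehydrogenase then turns pyruvate into lactate, which leaves the cell through a monocarboxylate transporter. When oxygen is plentiful, prolyl hydroxylases mark the alpha subunits of HIFs for destruction through the von Hippel-Lindau protein. When oxygen is scarce the subunits persist, bind DNA at sites with a short core motif and raise transcription of glycolytic enzymes, of mitophagy receptors and of the hydroxylases themselves. In macrophages, HIF-1 alpha is also raised by inflammatory signals at normal oxygen, and glycolysis is a known mark of inflammatory activation.

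Levels are given as CPM, counts relative to a library's total after scaling by the trimmed mean of M values (TMM), in the order of libraries A, B and C. Differences are log2 fold changes ± standard error (SE) from 1 edgeR quasi-likelihood fit over the 23 libraries, and a gene is called higher or lower where its Benjamini-Hochberg adjusted p over all 16260 genes was under 0.05. Library totals ran from 9303153 to 32994092 counts, so 3 counts correspond to between 0.0909 and 0.323 CPM. These are sorted populations in bulk, and fewer cells of a type and less RNA per cell cannot be told apart. In the controls the labelled cell types differed in a marker of each. C1qa, a complement gene of tissue macrophages, stood at 2122 and 2614 CPM in macrophages against 1.09 to 1.37 in monocytes. Ly6c2, which encodes the Ly6C of the monocyte gate, stood at 236 and 120.3 CPM in macrophages against 1229 to 2407 in monocytes. With implants the monocytes held 143 to 528 CPM of C1qa. The summed 10 macrophage markers were 34260 to 56980 CPM in control macrophages and 1982 to 3715 in control monocytes. At day 28 they were 14070 to 20770 in macrophages and 8627 to 24330 in monocytes, so the labelled cell types overlapped in this sum. The summed 8 monocyte markers were 3842 to 5834 CPM in control macrophages and 7442 to 11070 in control monocytes. At day 28 this second sum was 1516 to 3248 in macrophages and 5528 to 7941 in monocytes, without overlap. Markers of other cells also moved with the groups. The summed 15 neutrophil markers were 194.8 to 213.8 CPM in control macrophages and 3448 to 7140 at day 2, 177 to 369.4 at day 14 and 209.6 to 360.8 at day 28. In monocytes the same sum was 2806 to 4349 in controls, 2392 to 5479 at day 2, 318.9 to 887.6 at day 14 and 361.7 to 603.1 at day 28. The 6 dendritic cell markers summed to 121.6 to 161.1 CPM in control macrophages and 200.2 to 1114 in day 28 macrophages, and the 7 erythroid markers to 23.81 to 177.4 in control monocytes, 2.388 to 2085 at day 2, 215.6 to 825.4 at day 14 and 1.512 to 26.13 at day 28. The part of these markers in the results was not tested. In all, 5 libraries stood apart from their group mates in their trend with transcript length or in their mitochondrial share. They were macrophages day 2 B, macrophages day 14 C, control monocytes B, monocytes day 2 A and monocytes day 28 C.

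Of the 35 genes, 12 have near-identical copies elsewhere in the genome, mostly processed pseudogenes, and the labels and notes do not say how reads with several matches were counted. Gapdh has 127 such copies, Ldha 5, Eno1, Pgk1 and Bnip3 4 each, Tpi1 and Pgam1 2 each, and Gpi1, Aldoa, Pkm, Bnip3l and P4ha2 1 each. Copies here share at least 95% of bases over at least 200 bases. Levels of these 12 genes are uncertain for that reason, most of all Gapdh. Whether reads were counted by strand is likewise unstated, and exons of Pfkp overlap those of Pitrm1 on the other strand over 748 bases and exons of Gpi1 those of Gm26762 over 741.

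HIF binding sites are known to contain the core ACGTG or GCGTG, and these letters can be looked for upstream of the genes. RefSeq (GRCm38.p6) gave promoter windows of 300 bases, from 250 before to 50 after a transcript start, for 32 of the 35 genes, 47 windows in all. Searched on both strands, ACGTG or GCGTG stood in 80.85% of the 47 windows, against 43.77% of all 32851 mouse windows and 59.12% of the 14040 windows of the genes tested here. ACGTG alone stood in 55.32% of the members' windows, against 19.62% and 24.58%. The members' windows were also richer in G and C (median 64.33%, against 52.67% and 60%), which by itself changes how often a short motif occurs, and the part of base composition in the counts was not tested. A match is a description of letters and not a binding site. A palindrome of the core (CACGTG) is a match on both strands and counts as 2. A choice of 6 stretches of 160 bases are shown 5′ to 3′ on the strand of the gene, with every match to ACGTG or GCGTG on either strand in capitals. The first 4 belong to genes that were called higher with an implant and differ in how many matches they hold, and the last 2 to genes that were not called in any of the 6 implant comparisons.

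Ldha, chr7:46845644-46845803 (plus strand): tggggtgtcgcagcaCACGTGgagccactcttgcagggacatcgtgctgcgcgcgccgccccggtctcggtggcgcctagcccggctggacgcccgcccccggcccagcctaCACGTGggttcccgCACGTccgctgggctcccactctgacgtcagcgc
Bnip3, chr7:138909520-138909679 (minus strand): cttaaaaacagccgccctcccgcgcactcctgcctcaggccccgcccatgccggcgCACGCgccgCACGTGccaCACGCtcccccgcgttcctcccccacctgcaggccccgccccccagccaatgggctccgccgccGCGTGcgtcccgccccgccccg
Pgk1, chrX:106186940-106187099 (plus strand): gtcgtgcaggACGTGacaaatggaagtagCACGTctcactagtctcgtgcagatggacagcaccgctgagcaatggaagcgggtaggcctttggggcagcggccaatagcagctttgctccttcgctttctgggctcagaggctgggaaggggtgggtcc
P4ha2, chr11:54100764-54100923 (plus strand): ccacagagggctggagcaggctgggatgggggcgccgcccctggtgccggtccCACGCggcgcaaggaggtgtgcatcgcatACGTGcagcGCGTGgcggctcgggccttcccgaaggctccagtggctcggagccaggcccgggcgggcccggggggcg
Hk3, chr13:55021386-55021545 (minus strand): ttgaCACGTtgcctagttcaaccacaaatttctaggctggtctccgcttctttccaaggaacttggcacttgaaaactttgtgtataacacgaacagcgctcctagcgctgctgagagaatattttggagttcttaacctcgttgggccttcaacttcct
Kdm3a, chr6:71632991-71633150 (minus strand): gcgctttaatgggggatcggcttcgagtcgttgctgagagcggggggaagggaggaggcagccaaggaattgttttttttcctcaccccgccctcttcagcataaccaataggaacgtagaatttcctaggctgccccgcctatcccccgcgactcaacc

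The Ldha, Pgk1, P4ha2 and Hk3 stretches end 1 base before a transcript start, that of Bnip3 14 bases and that of Kdm3a 74 bases before it. Ldha held 5 matches, all of ACGTG. The Bnip3 stretch also held 5, of which 2 were ACGTG. Pgk1 held 2 and P4ha2 3. Hk3 held 1, at the upstream end of its stretch, and Kdm3a 0. Another part of that Kdm3a window, nearer the start, held 1 match, and 1 window of Hk1, which like Hk3 and Kdm3a was called higher in no implant comparison, held 5. Over the full windows, 30 of the 32 genes (93.75%) held a match in at least 1 window. That share was 64.8% over the genes tested that had a window and 46.73% over all genes with a window. Gpi1 and Tpi1 held no match in a full window, and both were called higher in all 6 implant comparisons. Stretches cut in the same way for Egln3, Hilpda and Eno1, also called higher in all 6 and not shown, held 0 matches.

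With an implant, most of the 35 genes were higher in both cell types and on every day sampled. In macrophages, 30 of 35 were called higher and 0 lower at day 2 (10.1% of all genes tested were called higher and 7.1% lower), 27 and 0 at day 14 (5.51% and 2.7%), and 27 and 0 at day 28 (6.57% and 3.99%). In monocytes, 26 were called higher and 0 lower at day 2 (15.5% and 11.5% of all genes), 28 and 1 at day 14 (19.8% and 17.9%), and 27 and 0 at day 28 (11.7% and 6.52%). The median log2 fold change of the 35 genes was 3.04, 2.53 and 2.42 in macrophages at days 2, 14 and 28, beside medians of -0.17, -0.08 and -0.04 over all genes tested. In monocytes it was 2.14, 2.60 and 2.44, beside 0, -0.03 and 0. The 3 days of a cell type share the same control libraries, so these are not independent repeats. The members at an unadjusted p under 0.05 with a negative change, called or not, numbered 1, 1 and 0 in macrophages and 1, 2 and 0 in monocytes at days 2, 14 and 28. Of all genes tested, the shares at such a p with a negative change were 15.8%, 10.9% and 11.5% in macrophages. In monocytes they were 18.3%, 23.3% and 13.5%. Over the settings run, DESeq2 and limma among them, at most 1 member was called lower in a macrophage comparison and at most 2 in a monocyte one.

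A set of 22 genes was called higher in all 6 implant comparisons: Slc2a1, Slc16a3, Gpi1, Pfkl, Pfkp, Aldoa, Aldoc, Tpi1, Pfkfb3, Gapdh, Pgk1, Pgam1, Eno1, Pkm, Ldha, Hif1a, Egln3, Bnip3, Hilpda, P4ha1, Mxi1 and Ankrd37. Another 9 were called higher in 1 to 5 of them, and 4 (Hk1, Hk3, Pfkfb4 and Kdm3a) in none. The shares of all genes tested in these classes were not counted. For all 6 comparisons it can be at most 5.51%, the share called higher in day 14 macrophages. Summed over the 35 genes, the share of all counts was 0.332 to 0.36% in control macrophages and 1.41 to 2.2% in the 9 macrophage libraries with an implant, with no overlap. In control monocytes it was 0.444 to 0.505%, and 1.3 to 2.18% with an implant.

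**Figure D1:**
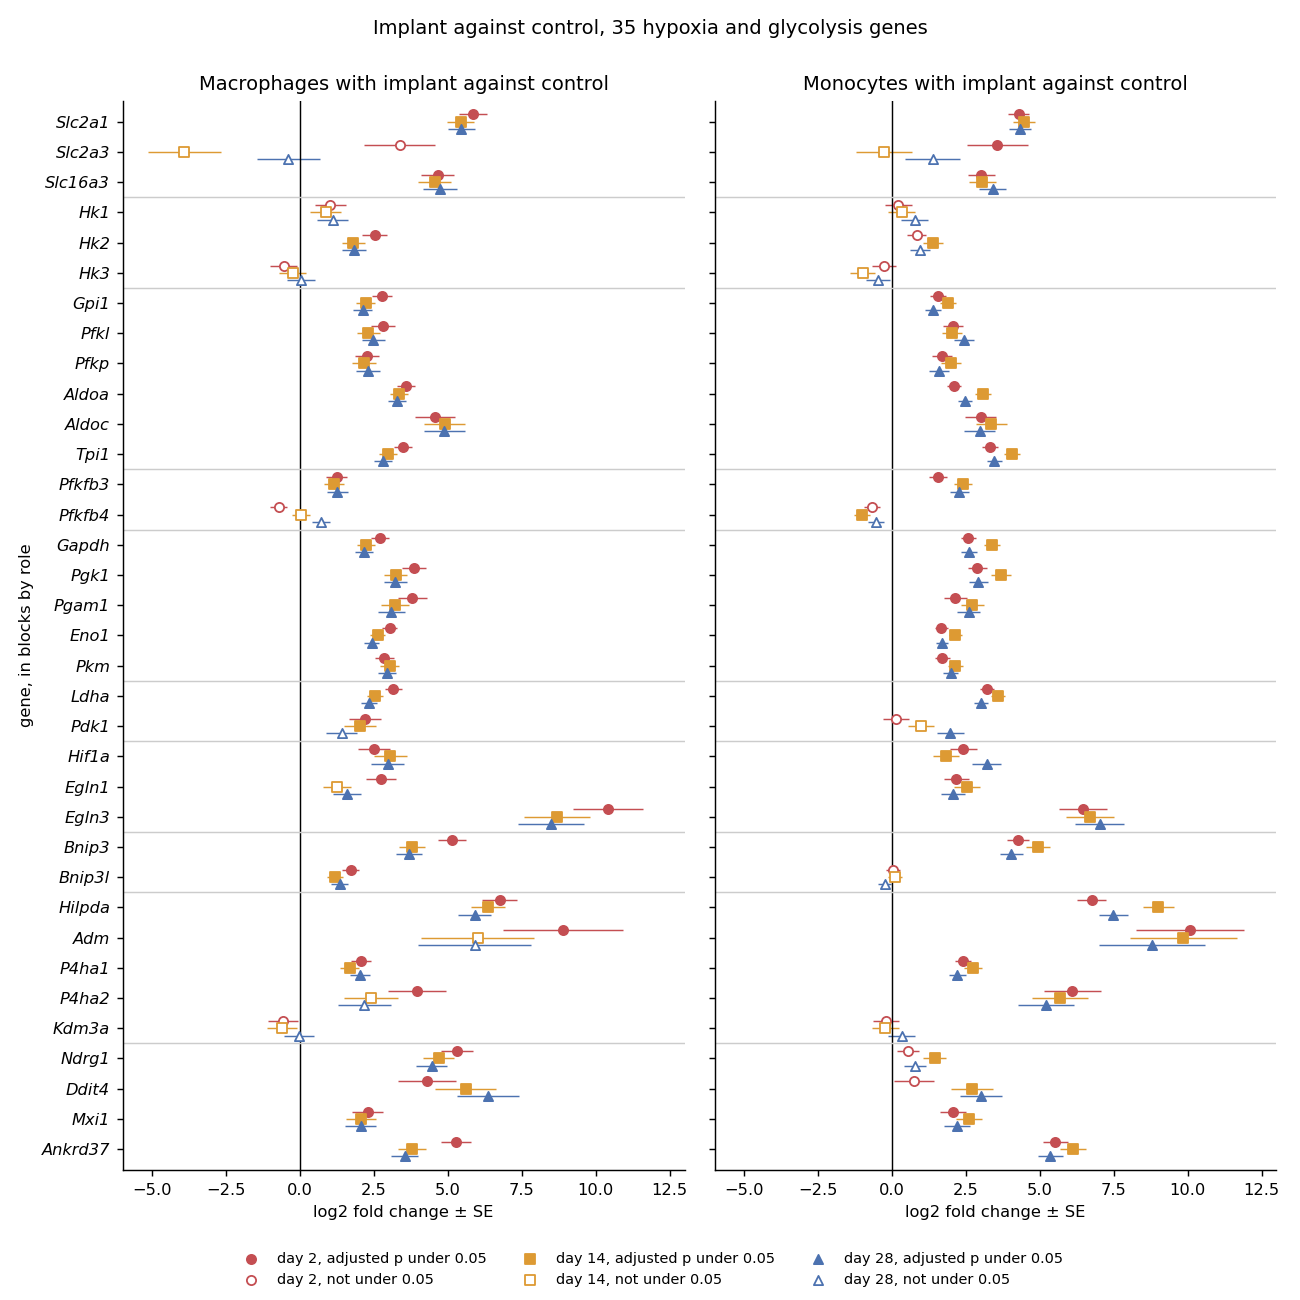
Log2 fold change ± SE (horizontal axis) of each of the 35 genes, in blocks by role, for macrophages (left) and monocytes (right) at day 2 (circles), day 14 (squares) and day 28 (triangles) against the control group of the same cell type. Filled symbols had an adjusted p under 0.05, and nearly all of them lie to the right of 0, with Egln3 in macrophages at day 2 reaching 10.41 and filled Pfkfb4 in monocytes at day 14 at -1.01.

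With only 2 macrophage control libraries, several macrophage calls were lost when 1 of these was left out. Without control library A, the calls of Adm, Hif1a, Mxi1, P4ha2, Pdk1 and Pfkfb3 at day 2 were lost (edgeR adjusted p 0.0619 to 0.164), as were those of Bnip3l, Hif1a, Mxi1, Pdk1 and Pfkfb3 at day 14 (0.0525 to 0.285) and of Bnip3l and Mxi1 at day 28 (0.0559 to 0.109). Without control library B, the calls of Adm, Ddit4 and Pfkfb3 at day 2 were lost (edgeR adjusted p 0.0538 to 0.223), as were Hk2, Mxi1, P4ha1, Pdk1 and Pfkfb3 at day 14 (0.0524 to 0.295) and Egln1, Hk2, Mxi1 and Pfkfb3 at day 28 (0.0908 to 0.31). The counts of members called still ranged from 24 to 30 at day 2, from 22 to 28 at day 14 and from 23 to 28 at day 28 when any 1 library was left out. In monocytes the corresponding ranges were 25 to 26, 29 to 30 and 27 to 28. A covariate for the trend with transcript length ended the day 2 macrophage calls of Adm, Egln1, Mxi1, P4ha2 and Pdk1, the day 14 ones of Mxi1 and Pdk1 and the day 28 one of Egln1. In monocytes it ended the calls of Egln1 and Mxi1 at day 2 and of Ddit4, Hk2, Mxi1 and Pfkfb4 at day 14. It also brought calls, with Hk1 higher in all 6 comparisons. Fitting only the 2 groups compared ended the macrophage calls of Hk2, Pfkfb3 and Bnip3l at days 14 and 28 and of Hif1a, Egln1 and Mxi1 at day 28. Leaving out the 5 libraries that stood apart ended those of Pfkfb3 at day 2 and Pdk1 at day 14 in macrophages, and of Slc2a3 at day 2 and Pfkp and Ddit4 at day 28 in monocytes. The Pfkfb3 call at day 14 in macrophages was also lost with DESeq2's size factors (edgeR adjusted p = 0.0524).

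Glucose enters these cells mainly through facilitative transporters, and Slc2a1 (GLUT1, chr4:119108711-119137983, plus strand, GRCm38) was among the genes with the clearest rise. Control macrophages held 7.77 and 12.9 CPM of Slc2a1, and macrophages with an implant 721, 506 and 564 at day 2, 593, 376 and 371 at day 14 and 446, 477 and 439.9 at day 28. In monocytes the values were 17.9, 24.7 and 35.3 in controls, then 589.7, 383 and 546 at day 2, 613, 658 and 443 at day 14 and 287, 673 and 607 at day 28. The lowest library with an implant thus stood far above the highest control in each cell type. The log2 fold changes were 5.85 ± 0.47, 5.43 ± 0.46 and 5.45 ± 0.46 in macrophages (edgeR adjusted p = 1.3e-07, 2.42e-07 and 2.13e-07). In monocytes they were 4.29 ± 0.36, 4.46 ± 0.36 and 4.33 ± 0.36 (edgeR adjusted p = 3.79e-08, 1.66e-08 and 3.13e-08).

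Slc16a3 (MCT4), the transporter through which glycolytic cells export lactate, moved in the same way. It stood at 21.6 and 12.6 CPM in control macrophages, 464, 415 and 403 at day 2, 619.5, 353 and 223 at day 14 and 413, 553 and 403 at day 28. Monocytes held 65.7, 40.1 and 79.3 CPM in controls and 467, 397 and 647 at day 2, 599, 494 and 454 at day 14 and 225, 843 and 896 at day 28. No library with an implant overlapped the controls. Log2 fold changes of Slc16a3 ran from 4.55 to 4.74 in macrophages and from 3.03 to 3.41 in monocytes, and all 6 were called (largest edgeR adjusted p = 4.68e-05).

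The second glucose transporter of the list, Slc2a3 (GLUT3), a high-affinity transporter, followed another course, and its values are given because of that course, which was seen first. Control macrophages held 3.2 and 3.0 CPM of Slc2a3, day 2 macrophages 35.5, 34.6 and 25.5, day 14 macrophages 0.0837, 0 and 0.538 and day 28 macrophages 0.189, 6.57 and 0.241. Monocytes held 4.86, 1.75 and 3.17 CPM in controls, 52.9, 15.3 and 48.3 at day 2, 3.88, 3.13 and 1.25 at day 14 and 2.25, 13.1 and 10.1 at day 28. So the day 2 libraries of each cell type were its highest. The 3 day 14 macrophage libraries and day 28 libraries A and C lay below both controls. Against control, the rise was called in monocytes at day 2 (3.57 ± 1.02, edgeR adjusted p = 0.0136) and not in macrophages at day 2 (3.36 ± 1.2, edgeR adjusted p = 0.0589). The monocyte call was lost without control monocytes B (edgeR adjusted p = 0.0521) or C (0.0569). In macrophages at day 14 the log2 fold change was -3.91 ± 1.22 (edgeR adjusted p = 0.0524), and -6.10 without macrophages day 14 C (edgeR adjusted p = 0.0336). At day 28 it was -0.40 ± 1.05 (edgeR adjusted p = 0.87), and -3.80 without macrophages day 28 B (edgeR adjusted p = 0.0257), the 1 library of that day that held several CPM. Slc2a3 gave 13.38% of the summed CPM per kilobase of exon (RPKM) of the 2 transporters in control macrophages and 0.03% at day 14.

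Hexokinases trap glucose by phosphorylating it, and of the 3 isozymes on the list Hk2, the inducible form, was the 1 called in an implant comparison. Hk2 stood at 28.8 and 13.3 CPM in control macrophages, 149, 103 and 110.2 at day 2, 80.9, 54.2 and 84.3 at day 14 and 50.5, 109 and 63.9 at day 28. In monocytes it stood at 48.6, 42.9 and 68.9 CPM in controls, 109, 93.6 and 84.3 at day 2, 158, 96.1 and 168 at day 14 and 104, 76.6 and 129.9 at day 28. Every implant library of a cell type exceeded its controls, although control monocytes C and monocytes day 28 B lay close together. The macrophage changes were 2.52 ± 0.41, 1.8 ± 0.40 and 1.82 ± 0.40 (edgeR adjusted p = 0.000284, 0.00609 and 0.00471), of which the last 2 were lost without control library B (0.109 and 0.0985). In monocytes the change was called at day 14 (1.4 ± 0.34, edgeR adjusted p = 0.00303) and not at day 2 (0.84 ± 0.33, edgeR adjusted p = 0.0678) or day 28 (0.95 ± 0.33, edgeR adjusted p = 0.0521). The day 28 value passed without control monocytes C (1.2, edgeR adjusted p = 0.0404) or monocytes day 28 B (1.13, edgeR adjusted p = 0.0401).

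Hk3, the isozyme abundant in myeloid cells, was not called in any of the 6. It stood at 154 and 109 CPM in control macrophages and 85.8, 90.2 and 92.7 at day 2, 173, 94.5 and 63.3 at day 14 and 194, 156 and 53.6 at day 28, with wide spread among the later libraries. In monocytes Hk3 was 128, 71 and 116 CPM in controls and 92.7, 54.3 and 113 at day 2, 55.2, 54.8 and 48.7 at day 14 and 43.9, 98.1 and 85.1 at day 28. The 3 day 14 monocyte libraries lay under all controls (log2 fold change -0.99 ± 0.42, edgeR adjusted p = 0.0687), and the difference passed without control monocytes B (-1.24, edgeR adjusted p = 0.0423) and by limma voom (-1.08, adjusted p = 0.0265). Hk1, the widely expressed isozyme, had changes of 1.02, 0.86 and 1.11 in macrophages and 0.22, 0.33 and 0.77 in monocytes, none called, though all 6 were called with the covariate for transcript length, from 1.37 to 3.02.

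Because the isozymes differ in length, their levels were compared as RPKM over merged exons. In control macrophages Hk3 made up 79.83% of the summed RPKM of the 3 hexokinases (2 libraries, 77.26 and 82.39%), Hk1 12.61% and Hk2 7.57%. At day 2 Hk3 made up 43.54% (37.96 to 46.85%) and Hk2 35.69% (32.89 to 40.54%). In monocytes Hk2 went from 19.89% in controls (15.71 to 22.49%) to 48.11% at day 14 (37.18 to 56.71%), where it was the most abundant of the 3. In this measure the libraries of macrophages day 2 and control macrophages, and of monocytes day 14 and control monocytes, did not overlap.

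**Figure D2:**
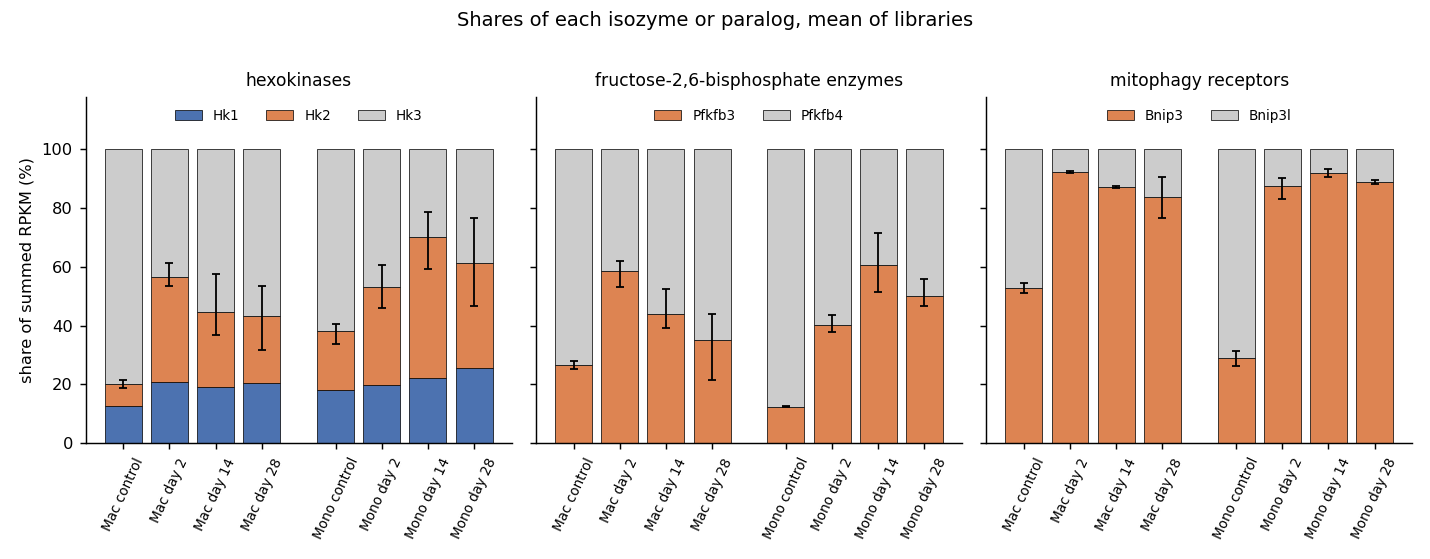
Mean share (vertical axis, percent of summed RPKM) of each hexokinase (left), fructose-2,6-bisphosphate enzyme (middle) and mitophagy receptor (right) in macrophages (Mac) and monocytes (Mono) by group. Whiskers give the lowest and highest share of Hk2, Pfkfb3 or Bnip3 among the libraries of a group, set at the top of that segment, and these 3 take a larger part of the bar in every implant group than in its control.

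The 6 genes of the upper, energy-spending steps and of triose formation (Gpi1, Pfkl, Pfkp, Aldoa, Aldoc and Tpi1) were all called higher in all 6 comparisons, with medians of 3.15, 2.64 and 2.64 in macrophages and 2.08, 2.56 and 2.45 in monocytes at days 2, 14 and 28. Tpi1, which interconverts the 2 triose phosphates, had the smallest p of the group over the 8 groups. Its levels were 164 and 199.7 CPM in control macrophages and 2331, 1701 and 2063 at day 2, 1425, 1200 and 1683 at day 14 and 1043, 1152 and 1627 at day 28. Monocytes held 112, 162 and 123 CPM of Tpi1 in controls and 1717, 1288 and 945 at day 2, 2421, 2045 and 2130 at day 14 and 1279, 1567 and 1544 at day 28. The log2 fold changes were 3.48 ± 0.31, 2.98 ± 0.30 and 2.81 ± 0.30 in macrophages and 3.31 ± 0.26, 4.05 ± 0.27 and 3.47 ± 0.26 in monocytes, the largest edgeR adjusted p being 3.5e-06.

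Aldoa, the aldolase that splits fructose-1,6-bisphosphate, had the highest mean of the members per kilobase of exon in macrophages at days 14 and 28 (1216 and 1171 RPKM). In macrophages day 14 B, Hilpda was higher (1071 RPKM, beside 1002 for Aldoa), and the reservation about copies holds for this ranking. Aldoa stood at 308 and 393 CPM in control macrophages, 5014, 3427 and 4176 at day 2, 3618, 2917 and 4086 at day 14 and 3140, 3166 and 3925 at day 28. Monocytes held 438, 642 and 509 CPM of Aldoa in controls, 2961, 2174 and 1692 at day 2, 4964, 3857 and 4645 at day 14 and 2440, 3452 and 2917 at day 28. Every implant library was above every control. The changes were 3.58 ± 0.31 and 2.1 ± 0.25 at day 2 in macrophages and monocytes (edgeR adjusted p = 2.68e-07 and 3.35e-06). Its paralog Aldoc, the brain-type aldolase, stood at 1.74 to 1.89 CPM in control macrophages and 24.3 to 80.6 over the 9 implant libraries, and at 1.22 to 3.88 and 11 to 37.7 in monocytes, without overlap. Per kilobase of exon Aldoc stayed a small part of the pair, with a mean of 13.08 RPKM in day 2 macrophages beside 1445 for Aldoa.

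Phosphofructokinase, the pathway's main control point, is represented by Pfkl and Pfkp, whose changes lay between 2.15 and 2.82 in macrophages and between 1.59 and 2.44 in monocytes. The muscle form Pfkm, not a member, went the other way in macrophages at day 2 (-2.99 ± 0.82, edgeR adjusted p = 0.0167). Gpi1, glucose-6-phosphate isomerase, rose by between 1.38 and 2.78 over the 6 comparisons.

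Fructose-2,6-bisphosphate switches phosphofructokinase on, and its level is set by enzymes of the PFKFB family, of which Pfkfb3 and Pfkfb4 are on the list. Pfkfb3, the form with mostly kinase activity, stood at 49.7 and 30.3 CPM in control macrophages and 98.9, 105 and 77.5 at day 2, 112, 87.8 and 65.8 at day 14 and 58.4, 126 and 104 at day 28. Monocytes held Pfkfb3 at 33, 23.3 and 36.7 CPM in controls and 78.6, 91.2 and 106 at day 2, 152, 150.5 and 193 at day 14 and 107, 160.2 and 186 at day 28. The macrophage groups did not overlap their control, but the gap to control library A was small. The rise was 1.23, 1.15 and 1.26 in macrophages (edgeR adjusted p = 0.0189, 0.0436 and 0.0219), calls that were lost without control library B (0.223, 0.295 and 0.245). They were also lost without macrophages day 2 A (edgeR adjusted p = 0.0696), macrophages day 14 A (0.138) or B (0.0763) and macrophages day 28 B (0.0929). In monocytes it was 1.57, 2.41 and 2.29 (edgeR adjusted p = 0.000807, 7.71e-06 and 1.92e-05), with no call lost when 1 library was left out.

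Pfkfb4, also known as a HIF target in other cells, was not called higher in any of the 6 comparisons, although limma voom (0.80, adjusted p = 0.0477) and the covariate for transcript length (0.85, edgeR adjusted p = 0.00576) called it in macrophages at day 28. It stood at 83 and 57.5 CPM in control macrophages and 38.8, 44.6 and 44.3 at day 2, 65.7, 84.2 and 65.7 at day 14 and 138, 120.5 and 85.7 at day 28. In monocytes it stood at 152, 107 and 162 CPM in controls and 82.7, 75.6 and 108 at day 2, 68.6, 91.6 and 49.8 at day 14 and 75.6, 119 and 94.5 at day 28. The 3 day 2 macrophage libraries lay under both controls (-0.72 ± 0.29, edgeR adjusted p = 0.0955). The 3 day 14 monocyte libraries lay under the controls too, and Pfkfb4 was the 1 member called lower in an implant comparison (-1.01 ± 0.27, edgeR adjusted p = 0.00605). With the covariate for transcript length its change was -0.09 (edgeR adjusted p = 0.872). Of the summed RPKM of the pair, Pfkfb3 made up 12.42% in control monocytes (12.23 to 12.7%) and 60.52% at day 14 (51.43 to 71.38%). In macrophages it made up 26.6% in controls (25.35 and 27.85%) and 58.48% at day 2 (53.01 to 62.18%), and 35.14% at day 28 (21.42 to 43.86%), where 1 library lay under both controls.

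The lower, energy-yielding steps run from Gapdh to Pkm, and all 5 members (Gapdh, Pgk1, Pgam1, Eno1 and Pkm) were called higher in all 6 comparisons, with medians of 3.04, 3.03 and 2.94 in macrophages and 2.14, 2.71 and 2.61 in monocytes. Eno1, enolase, stood at 222 and 270.4 CPM in control macrophages and 2277, 1893 and 1879 at day 2, 1747, 1315 and 1490 at day 14 and 1167, 1298 and 1474 at day 28. Monocytes held 416, 476 and 417 CPM of Eno1 in controls and 1550, 1316 and 1306 at day 2, 2096, 1887 and 1812 at day 14 and 1017, 1655 and 1577 at day 28. All implant libraries were above all controls, with changes of 3.04 ± 0.26 in macrophages and 1.67 ± 0.21 in monocytes at day 2 (edgeR adjusted p = 2.14e-07 and 6.7e-06).

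Gapdh, which makes the first high-energy phosphate of the pathway and is often used as a constant reference gene, was not constant here. With the reservation about its 127 copies, Gapdh stood at 26.3 and 35.7 CPM in control macrophages and 240.5, 196 and 167 at day 2, 148, 121 and 169 at day 14 and 105, 119.5 and 193 at day 28. In monocytes it was 18, 24.9 and 19.7 CPM in controls and 132, 127 and 116 at day 2, 255, 206 and 193 at day 14 and 103, 132 and 148 at day 28. No implant library overlapped the controls, and the changes ran from 2.16 to 3.39 (largest edgeR adjusted p = 6.41e-05). Pgk1 and Pgam1, the kinase and the mutase that follow, rose by 3.85 and 3.79 in macrophages at day 2. Pkm, pyruvate kinase, rose from 349 and 349.9 CPM in control macrophages to 2202 to 3621 and from 796 to 855 in control monocytes to 1834 to 3994.

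Ldha and Pdk1 both steer pyruvate away from the mitochondrion, Ldha by making lactate and Pdk1 by inhibiting pyruvate dehydrogenase. Ldha (chr7:46841475-46855627, plus strand, GRCm38) stood at 510.3 and 570.2 CPM in control macrophages and 5427, 4036 and 4902 at day 2, 3319, 2514 and 3543 at day 14 and 2654, 2728 and 2729 at day 28. In monocytes it stood at 345, 417 and 338 CPM in controls and 4449, 3099 and 2626 at day 2, 4976, 4373 and 3849 at day 14 and 2252, 3318 and 3304 at day 28. The groups did not overlap their controls. Per kilobase of exon, Ldha and Aldoa had nearly equal means in day 2 macrophages (1447 and 1445 RPKM), the highest of the members. Their order changed with the library: Aldoa stood at 1723 and Ldha at 1640 RPKM in library A, and at 1177 and 1219 in library B. The reservation about copies holds for this order too. The changes of Ldha were 3.15 ± 0.29, 2.53 ± 0.28 and 2.32 ± 0.27 in macrophages and 3.21 ± 0.24, 3.59 ± 0.25 and 3.01 ± 0.24 in monocytes (largest edgeR adjusted p = 9.79e-06).

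Pdk1 stood at 9.08 and 16.7 CPM in control macrophages, 71.5, 49.2 and 54.6 at day 2, 42.9, 64 and 49.5 at day 14 and 22.8, 14.8 and 65.4 at day 28, where library B lay between the controls. In monocytes it stood at 15.9, 10.8 and 9.21 CPM in controls, 15.2, 13.4 and 11 at day 2, 25, 18.8 and 27.2 at day 14 and 38.6, 76.8 and 25.2 at day 28. The macrophage rise was called at days 2 and 14 (2.18 ± 0.54 and 2.01 ± 0.54, edgeR adjusted p = 0.00891 and 0.0219) and not at day 28 (1.41 ± 0.52, edgeR adjusted p = 0.0931), where it passed without library B (1.77, edgeR adjusted p = 0.0357). Both earlier calls were lost without control library A (edgeR adjusted p = 0.164 and 0.285), and the day 14 call also without control library B (0.0524) or macrophages day 14 B (0.0593). In monocytes day 2 overlapped the controls (0.14 ± 0.45, edgeR adjusted p = 0.856). The 3 day 14 libraries lay above them without a call (0.98 ± 0.45, edgeR adjusted p = 0.089; 0.0484 by DESeq2), and the rise was called at day 28 (1.97 ± 0.46, edgeR adjusted p = 0.00462).

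Hif1a encodes the alpha subunit of HIF-1, and Egln1 and Egln3 encode the prolyl hydroxylases PHD2 and PHD3 that mark it for destruction. Hif1a stood at 35.2 and 42.7 CPM in control macrophages and 229.8, 245 and 183 at day 2, 355, 373 and 234 at day 14 and 131, 213 and 567 at day 28. Monocytes held 72.4, 58.2 and 106 CPM of Hif1a in controls and 452, 234 and 578 at day 2, 309, 300.2 and 236 at day 14 and 352, 930.1 and 897 at day 28. No implant library overlapped its controls. The macrophage changes were 2.49 ± 0.54, 3.04 ± 0.56 and 2.96 ± 0.56 (edgeR adjusted p = 0.00352, 0.00131 and 0.00129), and without control library A the first 2 missed the threshold (0.0857 and 0.0525). In monocytes they were 2.41 ± 0.46, 1.83 ± 0.45 and 3.2 ± 0.48 (edgeR adjusted p = 0.00071, 0.00351 and 5.42e-05).

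Egln3 (chr12:54178981-54203860, minus strand, GRCm38) had the largest fitted change of the 35 genes in macrophages on all 3 days. Control macrophages held 0 and 0.42 CPM, or 14 counts in all, and implant macrophages 456, 287 and 335 at day 2, 143, 74.2 and 112 at day 14 and 37.3, 71.9 and 174 at day 28. Control monocytes held 0.262, 1.2 and 0.757 CPM and implant monocytes 30.1, 85.5 and 78.3 at day 2, 142, 25.1 and 61.6 at day 14 and 60.6, 112 and 114 at day 28. The day 2 macrophages thus stood above every other library of the study. The fitted changes were 10.41 ± 1.18, 8.7 ± 1.11 and 8.48 ± 1.1 in macrophages (edgeR adjusted p = 4.81e-06, 2.85e-05 and 3.13e-05). They were 6.46 ± 0.81, 6.69 ± 0.81 and 7.02 ± 0.82 in monocytes (edgeR adjusted p = 7.24e-06, 3.45e-06 and 3.17e-06). With so few control counts their size depends on the prior count. Egln1 moved less: it stood at 11.8 and 4.43 CPM in control macrophages and 61.8, 48.6 and 51.3 at day 2 (2.74 ± 0.51) and was called on 5 of the 6 occasions, the exception being macrophages at day 14 (1.25 ± 0.47, edgeR adjusted p = 0.113). Its call in macrophages at day 28 (edgeR adjusted p = 0.0379) was lost without control library B (0.31), macrophages day 28 A (0.0586) or C (0.0921). Of the summed RPKM of the 2 hydroxylase genes, Egln3 made up 5.66% in control macrophages and 89.84% at day 2.

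Bnip3 and Bnip3l (NIX) are receptors on the outer mitochondrial membrane that mark mitochondria for removal. Bnip3 stood at 23.3 and 24.1 CPM in control macrophages and 981, 659.5 and 853 at day 2, 360.3, 254 and 366 at day 14 and 216, 241 and 461 at day 28. In monocytes it stood at 18.2, 25.4 and 17.1 CPM in controls and 565, 404 and 197 at day 2, 815, 559.7 and 489 at day 14 and 269.8, 354 and 376 at day 28. All implant libraries were well above the controls, with changes from 3.69 to 5.13 in macrophages and from 4.04 to 4.94 in monocytes (largest edgeR adjusted p = 1.32e-05).

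Bnip3l stood at 32.9 and 39 CPM in control macrophages and 134, 99.4 and 121 at day 2, 89.3, 65.5 and 88.2 at day 14 and 112, 79.5 and 80 at day 28. Control monocytes already held 74.5, 94.4 and 81.3 CPM, and implant monocytes 114, 75.5 and 68.1 at day 2, 97.6, 88.7 and 85.1 at day 14 and 56.2, 79.7 and 74.3 at day 28. It rose in macrophages on all 3 days (1.71 ± 0.28, 1.17 ± 0.27 and 1.33 ± 0.28, edgeR adjusted p = 0.000279, 0.00897 and 0.00297), with the last 2 calls lost without control library A (0.16 and 0.0559). In monocytes every implant group overlapped the controls (0.04 ± 0.23, 0.12 ± 0.23 and -0.25 ± 0.23, smallest edgeR adjusted p = 0.492). Of the pair's summed RPKM, Bnip3 made up 52.98% in control macrophages and 92.26% at day 2, and 29.1% in control monocytes and 91.88% at day 14.

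Hilpda, a lipid droplet protein that inhibits the lipase ATGL, gave the smallest p of the 35 genes over the 8 groups (edgeR F test, adjusted p = 1.32e-09). Hilpda (chr6:29272488-29275446, plus strand, GRCm38) stood at 12.5 and 15.2 CPM in control macrophages and 1830, 1045 and 1600 at day 2, 1028, 1182 and 1221 at day 14 and 532, 602 and 1373 at day 28. Control monocytes held 3.36, 6.8 and 5.04 CPM and implant monocytes 567, 766 and 302 at day 2, 2644, 1785 and 3396 at day 14 and 1168, 824 and 732 at day 28. The day 14 monocytes reached the highest values, with library B near the highest macrophage library and A and C above it. Changes were 6.75 ± 0.58, 6.36 ± 0.57 and 5.91 ± 0.56 in macrophages (largest edgeR adjusted p = 7.29e-07) and 6.75 ± 0.48, 9.01 ± 0.53 and 7.49 ± 0.50 in monocytes (largest 3.52e-09).

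The collagen prolyl 4-hydroxylase subunits P4ha1 and P4ha2 modify procollagen. P4ha1 stood at 85.4 and 52.4 CPM in control macrophages and 352, 232 and 278 at day 2, 273, 198 and 191 at day 14 and 329, 266 and 246 at day 28. Monocytes held 40.9, 48.1 and 31.1 CPM of P4ha1 in controls and 279.8, 183 and 172 at day 2, 276, 252 and 274 at day 14 and 126, 228 and 204 at day 28. All implant libraries exceeded their controls, and all 6 changes were called, from 1.68 to 2.74, that of macrophages at day 14 being lost without control library B (edgeR adjusted p = 0.0537). P4ha2 was scarce in control monocytes, with 19 counts over the 3 libraries, all from library A, and reached 2.47 to 17.3 CPM with an implant (6.1 ± 0.97, 5.69 ± 0.95 and 5.21 ± 0.94, largest edgeR adjusted p = 0.00045). In macrophages it went from 3.07 and 6.05 CPM to 84, 76.7 and 51.3 at day 2 (3.94 ± 0.98, edgeR adjusted p = 0.00865), a call lost without control library A (0.135).

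Adm, which encodes the vasodilator peptide adrenomedullin, was nearly absent without an implant. The 2 control macrophage libraries held 1 count and the 3 control monocyte libraries 0. Day 2 macrophages held 12.3, 15.3 and 8.09 CPM (699 counts), day 14 macrophages 2.01, 0.194 and 2.6 and day 28 macrophages 0, 2.26 and 2.17. The ratio of day 2 macrophages to control was 633.8, with a 95% counting interval of 113.4 to 25070 that covers counting error only. Implant monocytes held, in CPM, 14.7, 1.89 and 0.812 at day 2, 3.18, 5.72 and 5.82 at day 14 and 3.71, 1.32 and 2.06 at day 28, at least 193.3-fold, 212.9-fold and 96.58-fold higher than the level of 3 counts over the control group. The day 2 bound rested on monocytes day 2 A, which held 187 of the 238 counts: it was 54.95 without that library and 301.9 without monocytes day 2 C. Adm was called higher in macrophages at day 2 (edgeR adjusted p = 0.0057; 0.0848 without control library A and 0.0538 without B) and in monocytes on all 3 days (largest edgeR adjusted p = 0.0018). At days 14 and 28 in macrophages the adjusted p was 0.0613 and 0.056, and 0.0408 without macrophages day 14 B and 0.0179 without macrophages day 28 A. Kdm3a, a histone demethylase that is a HIF target in other cells, stood at 16.4 to 69.1 CPM in macrophages and at 20 to 80.5 in monocytes, and every implant group overlapped its control. None of its 6 changes was called, though 2 were with the covariate for transcript length, in monocytes at day 14 (1.46, edgeR adjusted p = 0.0475) and day 28 (1.22, edgeR adjusted p = 0.0331).

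Ndrg1, a stress-responsive gene of differentiation and growth arrest, Ddit4 (REDD1), an inhibitor of mTORC1, Mxi1, an antagonist of Myc, and Ankrd37, an ankyrin-repeat protein, make up the last group. Ankrd37 stood at 4.18 and 3.9 CPM in control macrophages and 156, 154 and 159.7 at day 2, 42.9, 46.7 and 77.2 at day 14 and 29, 45.8 and 65.8 at day 28. Its monocyte levels were 1.22, 2.28 and 1.04 CPM in controls and 44, 104 and 61.4 at day 2, 121, 95.4 and 103 at day 14 and 77.4, 63.6 and 45 at day 28. The day 2 macrophage libraries were within a few CPM of each other and above all later ones. Changes were 5.28 ± 0.50, 3.78 ± 0.47 and 3.54 ± 0.46 in macrophages and 5.53 ± 0.43, 6.13 ± 0.44 and 5.35 ± 0.42 in monocytes (largest edgeR adjusted p = 3.26e-05).

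Ndrg1 (chr15:66929318-66969640, minus strand, GRCm38) stood at 4.7 and 5.66 CPM in control macrophages and 249.9, 165 and 203 at day 2, 197, 99.4 and 105 at day 14 and 89.6, 116 and 135 at day 28, changes of 5.31 ± 0.54, 4.68 ± 0.52 and 4.45 ± 0.51 (largest edgeR adjusted p = 8.3e-06). Control monocytes already held 78.2, 75.5 and 98.3 CPM, and implant monocytes 147, 142 and 77.2 at day 2, 273, 253 and 159 at day 14 and 60.8, 159 and 212 at day 28. In monocytes Ndrg1 was called higher at day 14 (1.44 ± 0.38, edgeR adjusted p = 0.00548), and at day 28 the change was 0.78 ± 0.37 (edgeR adjusted p = 0.153), or 1.14 without monocytes day 28 A (edgeR adjusted p = 0.0249).

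Ddit4 rose in macrophages on all 3 days (4.29 ± 0.99, 5.6 ± 1.03 and 6.36 ± 1.06, edgeR adjusted p = 0.0053, 0.00137 and 0.000442), from 0.718 and 0.18 CPM in controls to 8.9, 7.61 and 7.37 at day 2 and 9.84, 27.1 and 63.3 at day 28, with the day 2 call lost without control library B (0.0852). In monocytes it was called at days 14 and 28 (2.71 ± 0.71 and 3.01 ± 0.71) and overlapped the controls at day 2 (0.73 ± 0.67, edgeR adjusted p = 0.441). Mxi1 was called in all 6, by between 2.04 and 2.6, and its macrophage calls were lost without control library A (edgeR adjusted p 0.0825, 0.164 and 0.109) and, at days 14 and 28, without B (0.0921 and 0.0908).

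**Figure D3:**
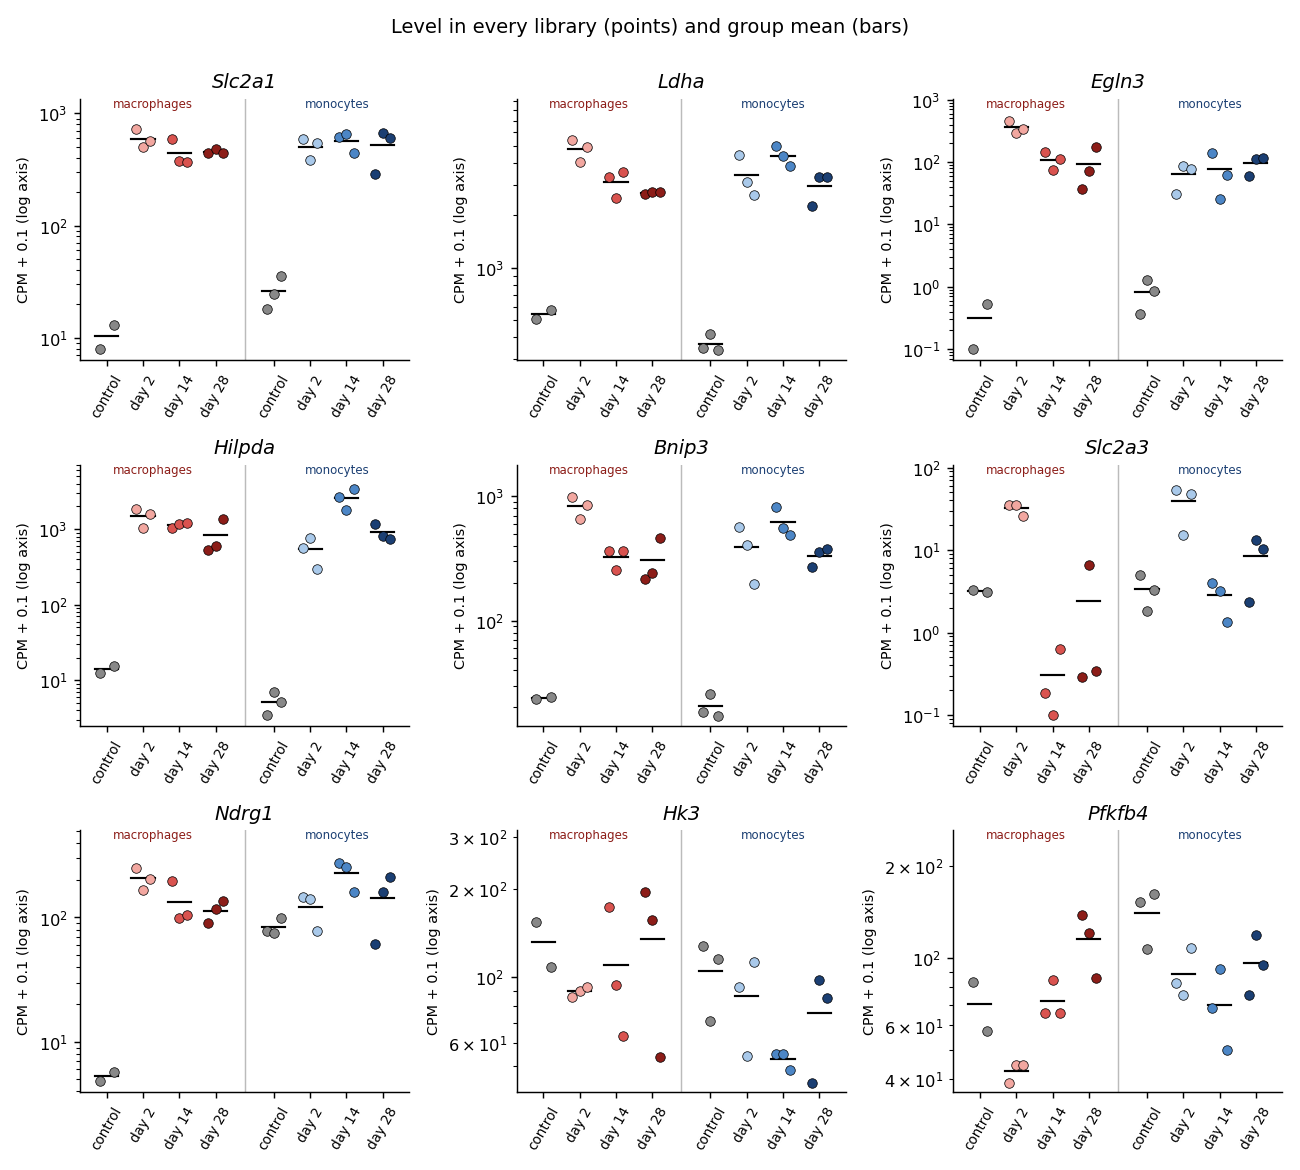
Level in every library (points, CPM + 0.1 on a log axis) and group mean (bars) of 9 genes, with macrophages left and monocytes right of the grey line and groups along the horizontal axis. Slc2a1, Ldha, Egln3, Hilpda and Bnip3 sit above their controls in every implant library, Slc2a3 is high at day 2, Ndrg1 starts at 4.70 and 5.66 CPM in control macrophages and at 75.5 to 98.3 CPM in control monocytes, and Hk3 and Pfkfb4 were not called higher.

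Comparing the implant days with each other asks whether the levels held over the month. Of the 35 genes, 1 was called between day 14 and day 2 in macrophages (0.474% of all genes tested were called in either direction) and 1 in monocytes (0.726%). The macrophage gene was Slc2a3, lower at day 14 (-7.28 ± 1.28, edgeR adjusted p = 0.0078), and the monocyte gene was Hilpda, higher at day 14 (2.26 ± 0.39, edgeR adjusted p = 0.00924). Both calls could be lost by leaving out 1 library, with the change keeping its sign. That of Slc2a3 was lost without macrophages day 14 A (-6.91, edgeR adjusted p = 0.0718) or B (-6.67, edgeR adjusted p = 0.0621). That of Hilpda was lost without monocytes day 2 C (1.97, edgeR adjusted p = 0.0729) or day 14 C (2.00, edgeR adjusted p = 0.0672). Between days 28 and 14, edgeR called 0 members in macrophages (0.00615% of all genes) and 0 in monocytes (0.72%), beside 2 and 11 members at an unadjusted p under 0.05. The 2 in macrophages were positive (4.73% of all genes were positive at such a p and 4% negative). Of the 11 in monocytes, 9 were negative (11.1% of all genes were positive at such a p and 8.56% negative), and the median change of the 35 genes there was -0.40, beside 0 over all genes.

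DESeq2 called 0 and limma voom 0 of the members in macrophages between days 28 and 14, and 3 and 1 in monocytes. The shares of all genes called by these methods are not given here. In macrophages, 12 members had an unadjusted p under 0.05 between days 14 and 2 and 11 of these were negative (of all genes, 5.73% were at such a p with a positive change and 4.88% with a negative one), among them Ankrd37 (-1.5 ± 0.35, edgeR adjusted p = 0.0626), Bnip3 (-1.35 ± 0.34, edgeR adjusted p = 0.0878) and Egln1 (-1.5 ± 0.41, edgeR adjusted p = 0.14). In monocytes, 10 members had an unadjusted p under 0.05 and 9 of these were positive (6.25% of all genes positive and 6.06% negative), with Aldoa at 0.98 ± 0.24 (edgeR adjusted p = 0.0614). The median change of all 35 genes between days 14 and 2 was -0.42 in macrophages and 0.37 in monocytes, beside 0.02 and -0.02 over all genes. The summed neutrophil markers were lower at day 14 than at day 2 over the same interval in both cell types, as given above, and their part in these values was not tested.

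Before any implant the cell types differed in 12 of the 35 genes, 3 higher and 9 lower in macrophages (12.5% of all genes were called in either direction). Macrophages held less Ndrg1 (-4.01 ± 0.50, edgeR adjusted p = 1.07e-05), Ddit4 (-3.96 ± 0.97, edgeR adjusted p = 0.00907), Bnip3l (-1.21 ± 0.27, edgeR adjusted p = 0.00463) and Pkm (-1.23 ± 0.29, edgeR adjusted p = 0.00698), and also less Slc2a1, Slc16a3, Hk2, Pfkfb4 and Eno1, by -0.83 to -1.86. They held more P4ha2 (4.94 ± 0.97, edgeR adjusted p = 0.0014), Hilpda (1.46) and Ankrd37 (1.41). Ndrg1, Ddit4, Bnip3l, Pkm and P4ha2 had the smallest p of these. The count moved with the control libraries: it was 4 to 12 when 1 library was left out. Without macrophage control A, the calls of Ankrd37, Bnip3l, Eno1, Hilpda, Pfkfb4, Pkm and Slc2a1 were lost (edgeR adjusted p 0.0531 to 0.252). Without macrophage control B, those of Ankrd37, Ddit4, Eno1, Hilpda, Hk2, Pfkfb4, Pkm and Slc16a3 were lost (edgeR adjusted p 0.0543 to 0.321). Without control monocytes A, Ankrd37, Hilpda and Pfkfb4 were lost (0.0824 to 0.105), and without C also Hk2, Slc16a3 and Slc2a1 (0.0607 to 0.126).

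The cell types were then compared on each implant day. At day 2, 5 members differed (3.42% of all genes): Aldoa (0.89 ± 0.24, edgeR adjusted p = 0.0425), Pdk1 (2.15 ± 0.47, edgeR adjusted p = 0.0114), Egln3 (2.47 ± 0.66, edgeR adjusted p = 0.0399) and Hilpda (1.45 ± 0.38, edgeR adjusted p = 0.0368) were higher in macrophages and Pfkfb4 (-1.06 ± 0.27, edgeR adjusted p = 0.0314) lower. Leaving out 1 library of either day 2 group gave between 0 and 4 members called. Some were not among these 5: Bnip3 was called without monocytes day 2 A and Ankrd37 without monocytes day 2 B. All 5 calls above were lost without macrophages day 2 A (edgeR adjusted p 0.0519 to 0.198) or monocytes day 2 C (0.0645 to 0.191), and 2 to 4 of them without each of the others. At day 14 the 1 member called was Slc2a3, lower in macrophages (-3.74 ± 1.17, edgeR adjusted p = 0.0489; 9.37% of all genes), a call lost without macrophages day 14 A (0.149) or B (0.16) or any monocyte library of that day (0.067 to 0.117). At day 28 edgeR called 0 members (2.52% of all genes), DESeq2 0 and limma voom 1. By edgeR, 6 members had an unadjusted p under 0.05, 3 with a positive change and 3 with a negative one (9.39% and 8.83% of all genes). The summed macrophage markers of the cell types overlapped at day 28 and the summed monocyte markers did not, as given above. The part of the overlap in the macrophage markers was not tested.

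The members called higher were compared between the cell types on each day, although a call in 1 cell type alone does not show a difference. At day 2, 25 genes were called higher in both, which is 83.3% of the macrophage list and 96.2% of the monocyte list. At day 14 it was 25 genes (92.6% and 89.3%) and at day 28 24 genes (88.9% and 88.9%). The same overlap over all genes called higher was not counted, so these shares have no background beside them. The difference between the implant effects was tested itself, as the macrophage log2 fold change minus the monocyte one. It was called for 4 members at day 2 (3.78% of all genes), 3 at day 14 (7.55%) and 3 at day 28 (5.77%).

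Ndrg1 was called on all 3 days, with a macrophage rise larger by 4.77 ± 0.61, 3.24 ± 0.59 and 3.67 ± 0.59 (edgeR adjusted p = 5.46e-05, 0.00168 and 0.000545), and no library left out ended these calls. Its control levels differed by -4.01, while at day 28 its implant libraries spanned 89.6 to 135 CPM in macrophages and 60.8 to 212 in monocytes. Bnip3l rose more in macrophages at day 2 (1.67 ± 0.36, edgeR adjusted p = 0.00814) and day 28 (1.58 ± 0.36, edgeR adjusted p = 0.00919), and both calls were lost without macrophage control A (0.0714 and 0.0589). Aldoa (1.48 ± 0.36, edgeR adjusted p = 0.0207) and Eno1 (1.36 ± 0.31, edgeR adjusted p = 0.0118) rose more in macrophages at day 2, also calls lost without macrophage control A (0.123 and 0.111). Hilpda (-2.64 ± 0.56, edgeR adjusted p = 0.00633) and Ankrd37 (-2.35 ± 0.54, edgeR adjusted p = 0.00995) rose more in monocytes at day 14. Ankrd37 did so at day 28 too (-1.82 ± 0.54, edgeR adjusted p = 0.0487), but that call was lost on leaving out any 1 of 8 libraries (edgeR adjusted p 0.0768 to 0.134).

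**Figure D4:**
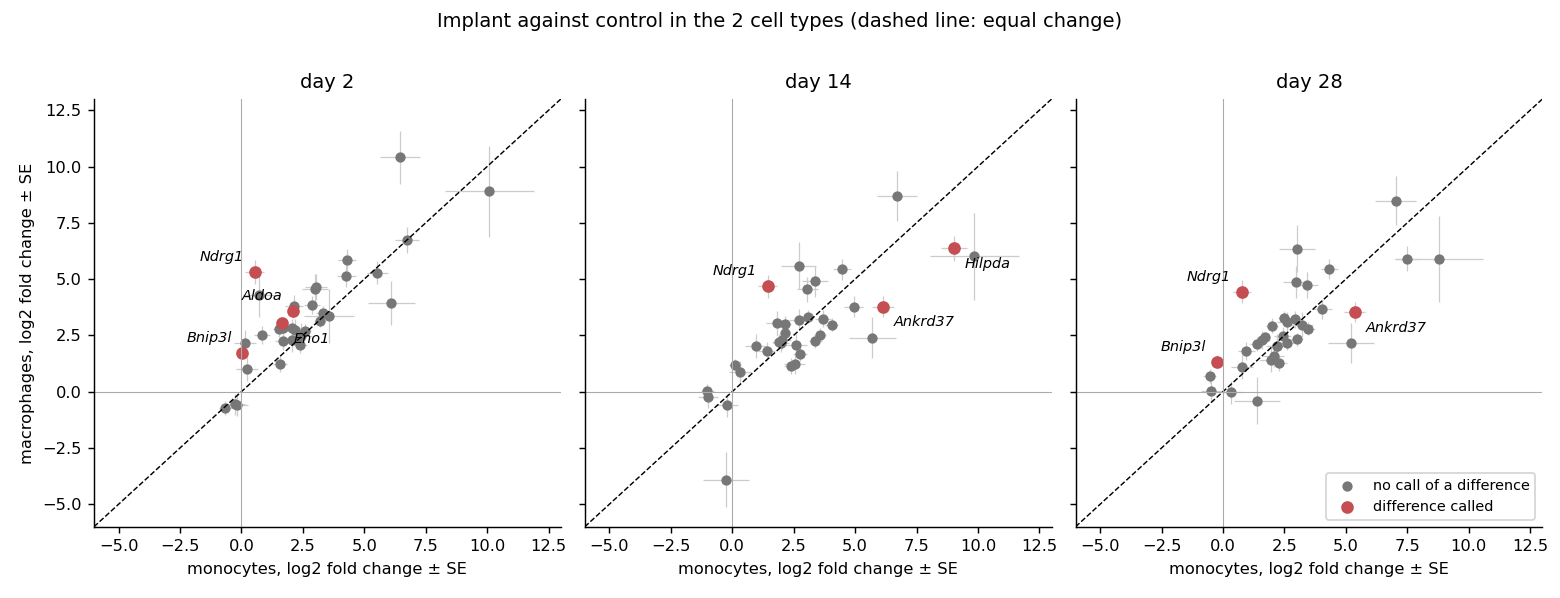
Log2 fold change ± SE of each of the 35 genes against control in macrophages (vertical axis) and in monocytes (horizontal axis) at day 2, day 14 and day 28, with equal change on the dashed line. Red points are the 4, 3 and 3 genes whose difference between cell types had an adjusted p under 0.05, and Ndrg1 lies above the line on every day.

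The listed neutrophil markers that moved with the groups included Ly6g and S100a8. Ly6g was at 0 in both control macrophage libraries and at 20.6, 9.3 and 9.9 CPM in macrophages at day 2. S100a8 was at 0.522 and 2.64 CPM in these controls and at 3157, 1460 and 2303 at day 2. In day 2 macrophages 10 of the 15 neutrophil markers were called higher and 0 lower (10.1% and 7.1% of all genes). At days 14 and 28 the marker sum in macrophages was 177 to 369.4 CPM, and Ly6g was at 0 in 4 of the 6 macrophage libraries. In monocytes the neutrophil sums of controls and day 2 overlapped. The members' share in monocytes was 0.444 to 0.505% in controls and 1.39 to 1.84% at day 2. The part of neutrophil RNA in the members' values was not tested in either cell type. Fibroblast markers (8 genes) summed to 193.8 to 261.8 CPM in control macrophages and 5.97 to 52.2 at day 2, and in monocytes to 0.133 to 1.04 in controls, 12.7 to 136.1 at day 2, 620.4 to 1130 at day 14 and 274.2 to 672.5 at day 28. Collagen-modifying P4ha1 and P4ha2 are genes that fibroblasts also express, and the part of fibroblast RNA in their monocyte values was not tested. The mitochondrial share of counts was 0.746 to 1.25% in control macrophages and 1.86 to 4.35% at day 2, and 0.511 to 0.709% and 1.18 to 2.88% in monocytes, and its part in the results was not tested. Without the 5 libraries that stood apart, a setting chosen after the data were seen, 29, 26 and 27 members were called in macrophages and 25, 30 and 25 in monocytes at days 2, 14 and 28.

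**Figure D5:**
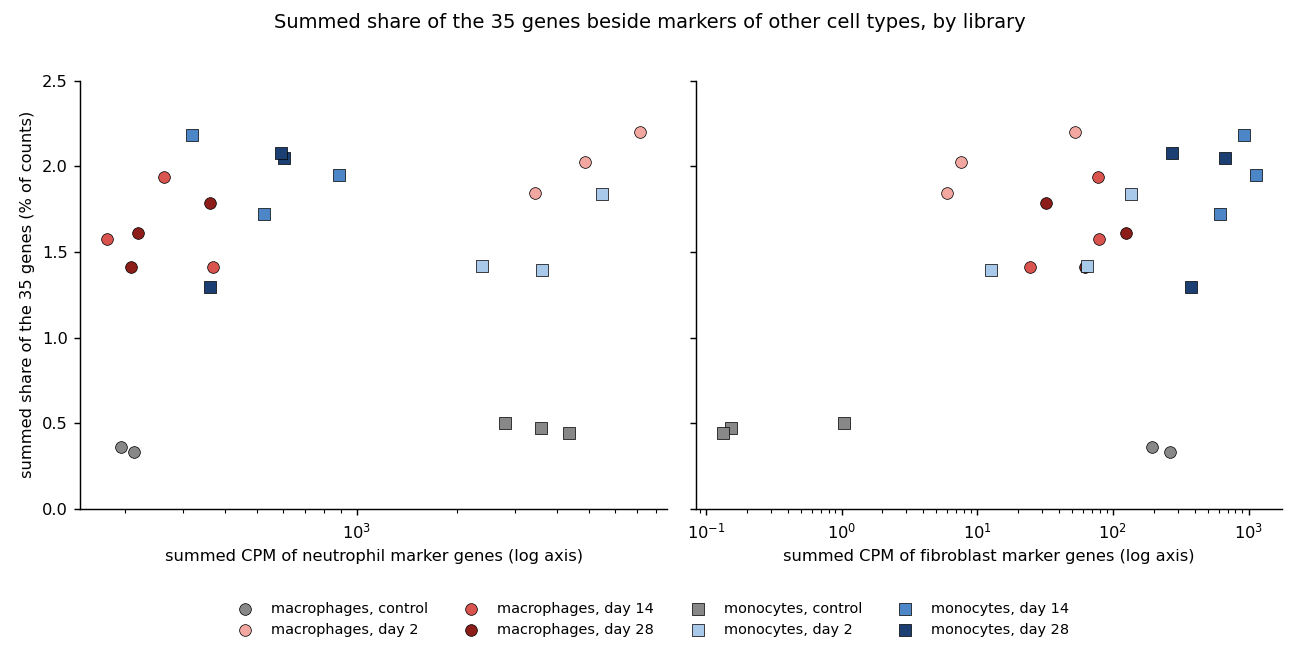
Summed share of the 35 genes (vertical axis, percent of all counts) in each of the 23 libraries against the summed CPM (log axis) of 15 neutrophil markers (left) and 8 fibroblast markers (right), with macrophages as circles and monocytes as squares. The 5 control libraries lie at 0.332 to 0.505% and all implant libraries at 1.3% or above, and the part of either set of markers was not tested.

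Genes of the same pathways that are not among the 35 were read from lists of other glycolysis, HIF and neighbouring genes. Of 23 other glycolysis genes tested, mostly tissue-restricted isozymes, 2 were called higher and 2 lower in day 2 macrophages (10.1% and 7.1% of all genes), with a median log2 fold change of -0.30, beside -0.17 over all genes. Slc2a6, a lysosomal hexose transporter, rose (2.62 ± 0.52, edgeR adjusted p = 0.00158), as did Mpc1, part of the mitochondrial pyruvate carrier (1.25 ± 0.35, edgeR adjusted p = 0.0178). Pfkm and Adpgk, the ADP-dependent glucokinase (-2.69 ± 0.92, edgeR adjusted p = 0.0477), fell. In day 14 monocytes 2 of the 23 were called higher and 6 lower (19.8% and 17.9% of all genes). Among the lower ones was Slc2a6, with a change of -2.04 ± 0.43 (edgeR adjusted p = 0.00105).

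Of 32 other known hypoxia targets, 16 were called higher and 0 lower in day 2 macrophages (median 1.36), 14 and 0 at day 14 and 13 and 0 at day 28. Of all genes, 10.1% and 7.1%, 5.51% and 2.7%, and 6.57% and 3.99% were called higher and lower there. In monocytes the counts were 16 and 2, 19 and 2, and 18 and 0. The shares of all genes were 15.5% and 11.5%, 19.8% and 17.9%, and 11.7% and 6.52%. Vegfa, the vascular growth factor, went from 0.0653 and 0.899 CPM in control macrophages to 163, 66 and 75.5 at day 2 (7.51 ± 0.94, edgeR adjusted p = 1.62e-05), and from 0.654, 0.929 and 1.87 in control monocytes to 244, 264 and 295 at day 14 (7.86 ± 0.77, edgeR adjusted p = 2.11e-07). The transcriptional repressor Bhlhe40 (4.46 ± 0.43, edgeR adjusted p = 7.45e-07) and the lipid droplet protein Plin2 (1.8 ± 0.27, edgeR adjusted p = 9.98e-05) also rose in day 2 macrophages. Of 11 other regulators of HIF, 3 were called higher in day 2 macrophages and 0 lower (10.1% and 7.1% of all genes). They were Rbx1 (2.06, edgeR adjusted p = 0.0021), Elob (2.12, edgeR adjusted p = 0.00641) and Eloc (1.62, edgeR adjusted p = 0.00257), all subunits of the ligase complex of the von Hippel-Lindau protein. The slope of expression on log2 transcript length was 0.0674 to 0.196 in control macrophages and -0.148 to -0.0975 at day 2, and its part in these values was not tested.

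The pentose phosphate pathway, which branches from glycolysis and makes NADPH and ribose, has 8 genes in the list. Of these, 3, 4 and 4 were called higher and 0 lower in macrophages at days 2, 14 and 28, beside 10.1%, 5.51% and 6.57% of all genes called higher. In monocytes 0 were called higher and 2, 4 and 2 lower, beside 11.5%, 17.9% and 6.52% of all genes called lower. The difference between the cell types was not tested for the list. Taldo1, transaldolase (1.5 ± 0.25, edgeR adjusted p = 0.000284), and Pgd, which makes NADPH (1.25 ± 0.34, edgeR adjusted p = 0.0154), rose in day 2 macrophages. Tkt, transketolase, changed by 1.43 ± 0.26 in macrophages at day 28 (edgeR adjusted p = 0.000897) and by -0.82 ± 0.22 in monocytes (edgeR adjusted p = 0.0119). G6pdx, the enzyme that commits glucose to the pathway, was lower in monocytes at days 14 and 28 (-1.08 ± 0.24 and -1.4 ± 0.24, edgeR adjusted p = 0.0013 and 0.00023), while in macrophages it was not called (edgeR adjusted p = 0.103 at day 28). In control monocytes G6pdx and Tkt had higher RPKM (159.5 and 47.4) than in control macrophages (51.1 and 14.5).

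Of 23 genes of pyruvate dehydrogenase and the citric acid cycle, 3 were called higher and 1 lower in day 2 macrophages (median 0.15; 10.1% and 7.1% of all genes) and 7 and 0 in day 2 monocytes (median 0.38; 15.5% and 11.5% of all genes). Mdh2, malate dehydrogenase, rose in both (1.26 ± 0.23 and 1.26 ± 0.20, edgeR adjusted p = 0.000695 and 0.000104), and Sdhb, a subunit of succinate dehydrogenase, rose in macrophages (0.93 ± 0.27, edgeR adjusted p = 0.0221), while Fh1, fumarate hydratase, fell there (-1.67 ± 0.32, edgeR adjusted p = 0.00117). Of 5 gluconeogenesis genes tested, Pck2, the mitochondrial phosphoenolpyruvate carboxykinase, was the 1 called in day 2 macrophages (-2.47 ± 0.39, edgeR adjusted p = 0.000168), and it fell in monocytes as well (-2.06 ± 0.35, edgeR adjusted p = 0.000248).

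Across the 23 libraries, log2(CPM + 1) of the 35 genes went together in most pairs, as a description only, since the libraries share 8 groups and the contrast of implant and control. The median Pearson r over the 595 pairs was 0.716, with 222 pairs over 0.8 and 86 below 0. After the group means were removed, the median was 0.215. The genes with the highest likeness were Tpi1 and Ldha (r 0.992), followed by Tpi1 with Gapdh, Bnip3 and Hilpda (r 0.989 each). Hif1a was closest to Slc16a3 (r 0.886). The 3 genes with the lowest median r to the others were Pfkfb4 (-0.363), Hk3 (-0.3) and Kdm3a (-0.166), and Slc2a3 followed at 0.196.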

How the data were processed

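The authors deposited 1 table of raw read counts per gene for 23 libraries. Per the labels' protocols, tissue and hydrogels were digested with Liberase TM, sorted cells went through SMART-Seq v4 and Nextera XT, and single 75-base reads came from a HiSeq 2500. The submitters' processing notes list bcl2fastq, STAR 2.4.1d, featureCounts of Subread 1.5.1 and GRCm38, without an annotation release, a strand setting or a rule for multi-mapped reads. How multi-mapped reads were treated bears on the genes with pseudogene copies. Symbols came from GENCODE M21 for 47310 of 47729 gene IDs, and 20566 genes had 0 counts everywhere.

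Counts were filtered with edgeR 4.0.16 (filterByExpr, 16260 genes kept), scaled by TMM and fitted with 1 quasi-likelihood model over the 8 groups in R 4.3.3, with Benjamini-Hochberg adjustment over all genes. The 17 comparisons set each implant day against its control, the days against each other, the cell types against each other, and the implant effects of the cell types against each other. Library totals ran from 9303153 to 32994092 counts (median 24722229), and a level of 3 counts set the floor. Alternatives were DESeq2 1.42.0, its size factors in edgeR, limma 3.58.1 (voom), no filter, another prior count, the replicate letters as a block, a transcript length covariate, only the groups compared, and leaving out each library. Leaving out the 5 libraries that stood apart and recomputing the folds of Adm without each implant library were added after seeing the data. The fit was tested on simulated data first.

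The 35 genes, the pathway lists and the markers were chosen with earlier results of these data known. Every member is named, with values per library for the 2 with the smallest p over the 8 groups in each role and Hif1a (20 in all), and for Slc2a3, which was chosen after its values were seen. From each pathway list the 3 genes with the smallest adjusted p in day 2 macrophages and up to 3 called the other way qualified for naming, and G6pdx and Slc2a6 in monocytes were added after their values were seen. The edgeR p-values weigh a difference between groups against the spread between libraries, which was estimated over all 8 groups together. The replicate letters were checked for pairing: every correlation of same-lettered libraries was over 0.1 in 0 of the 10 comparisons with 3 pairs and in 1 of the 4 with 2 pairs (control macrophages against control monocytes, 0.143 and 0.216), so they were not taken as pairs. Promoter letters came from RefSeq tables of GRCm38.p6.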

Additional observations from a re-analysis of the deposited data

Results flagged for a closer look

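For 6 of the 35 genes the implant effect differed between the cell types by the test of the difference itself (edgeR quasi-likelihood, adjusted p under 0.05), in 10 gene and day combinations, each given as the macrophage log2 fold change minus the monocyte one.

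Ndrg1, the stress-responsive growth arrest gene, stood out on all 3 days, with differences of 4.769 at day 2, 3.243 at day 14 and 3.671 at day 28. It kept its direction and call under every alternative run. The mitophagy receptor Bnip3l gave 1.668 at day 2 and 1.584 at day 28, and both calls were lost without macrophage control A (adjusted p 0.0714 and 0.0589). The glycolytic enzymes Aldoa (1.481) and Eno1 (1.363) gave larger macrophage effects at day 2. The call of Aldoa was lost without macrophage control A (0.123), macrophages day 2 A (0.0573) or monocytes day 2 B (0.0523) or C (0.0545), and that of Eno1 without macrophage control A (0.111) or without the 5 libraries that stood apart (0.0501).

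The lipid droplet protein Hilpda gave -2.644 at day 14, where its mean level in monocytes was higher than in any macrophage group. Ankrd37, an ankyrin-repeat protein, gave -2.35 at day 14 and -1.818 at day 28, and the day 28 call was lost by limma voom (0.0961), with the replicate block (0.058), with only the groups compared (0.128) and on leaving out any 1 of 8 libraries (up to 0.134). Its control means were 4.04 CPM in macrophages and 1.51 CPM in monocytes. In day 2 macrophages the summed neutrophil markers were 3448 to 7140 CPM against 2392 to 5479 in day 2 monocytes, and their part in the day 2 differences was not tested.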

How the results depend on the processing

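The 6 implant counts stayed within 1.5 times of their values under every alternative run: 24 to 32, 22 to 30 and 21 to 31 in macrophages at days 2, 14 and 28, and 25 to 28, 27 to 31 and 25 to 29 in monocytes. The small counts moved more, and the cause was not tested. Counts under the alternatives, here and above, stand without the share of all genes called in the same setting. They therefore do not set the members apart from other genes.

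DESeq2 called 4 members between days 14 and 2 in macrophages and 5 in monocytes, 3 between days 28 and 14 in monocytes, 12 and 9 between cell types at days 2 and 14, and 10, 9 and 6 for differences in implant effect at days 2, 14 and 28. With its size factors in edgeR, the counts were 2 for monocytes day 14 against 2, 3 between cell types at day 14 and 6 for the day 14 difference in effect. Limma voom called 9 (macrophages) and 5 (monocytes) between days 14 and 2, 1 in monocytes between days 28 and 14, 19, 12 and 1 between cell types, and 8 and 8 for differences in effect at days 2 and 14. With no filter the counts were 8 and 4 between days 14 and 2, 1 and 3 between days 28 and 14, 8, 6 and 4 between cell types, and 11, 8 and 7 for differences in effect. The transcript length covariate gave 2 and 2 between days 14 and 2, 4 between cell types at day 14 and 7 for the day 2 difference in effect, and turned Kdm3a in monocytes at day 14 to 1.455 (adjusted p 0.0475). With only the groups compared the counts were 4 and 2 between days 14 and 2, 5 between controls, 4 between cell types at day 14 and 9 for the day 2 difference. Without the 5 libraries that stood apart they were 0 and 2 between days 14 and 2, 1 and 3 between cell types at days 2 and 14, and 5 for the day 14 difference.

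As a replicate block the letters gave 1 member between cell types at day 2 and 0 at day 14. By the rule for 3 or more pairs the letters did not pair the libraries (r -0.131 to 0.237 over all comparisons), so the block is given here alone.

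Leaving out 1 library gave 24 to 30, 22 to 28 and 23 to 28 calls in macrophages against control and 25 to 26, 29 to 30 and 27 to 28 in monocytes. It gave 4 to 12 between controls, 0 to 4, 0 to 1 and 0 to 1 between cell types at days 2, 14 and 28, 0 to 2 and 0 to 2 between days 14 and 2, 0 to 0 in both cell types between days 28 and 14, and 2 to 6, 3 to 5 and 1 to 5 for differences in effect.

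The size factors of DESeq2 in edgeR moved the median change of all genes by -0.108 to 0.078 (log2), and over the alternatives other than leaving out 1 library it moved by -0.153 to 0.165. With 2 macrophage controls, the effects there are the least precise, and Adm and Slc2a3, with few counts, are limited by depth.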
